A study of Danio rerio with 16 samples.

Results

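The embryonic and larval globin genes of the zebrafish were followed across whole embryos injected with polystyrene particles, mock-injected or left uninjected. A gene was taken as a member when its symbol in the count tables began with hbaa, hbae, hbba or hbbe, which found 7 of 31388 rows. Of these, 5 lie on chromosome 3 (the alpha-like hbae1, hbae3 and hbaa1 and the beta-like hbbe1.1 and hbbe1.2) and 2 on chromosome 12 (the beta-like hbbe2 and hbbe3). Among the 7, 6 carry an embryonic prefix and 1, hbaa1, an adult prefix.

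Globins are the protein chains of hemoglobin, which carries oxygen in red blood cells. A hemoglobin molecule joins alpha-like with beta-like chains, and each chain holds a heme group with an iron atom. Vertebrates use embryonic globin genes in their first red cells and adult ones later in life, and in zebrafish the genes of both chain types sit side by side in clusters. The transcripts of these genes are made in the red cell lineage.

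Particle embryos received 1 nl of red fluorescent polystyrene particles at 5 mg/ml in polyvinylpyrrolidone (PVP) into the yolk at 2 days post fertilization (dpf). Mock embryos received PVP alone, and control embryos were not injected; all were wild type. RNA was taken at 3 days post injection (dpi, 5 dpf) or at 1 dpi (3 dpf), from 10 embryos per treatment group, and the sources used here do not say whether each library pooled them. At each time there were 3 particle libraries (A, B and C), 2 mock libraries (A and B) and 3 control libraries (A, B and C), labelled as biological replicates, so that p-values measure the spread between these samples. According to the labels the particles measured 700 nm. Both particle C libraries have 70 nm in their headers instead, and this was not settled here.

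The 16 libraries held 8679739 to 19840148 counts, and globin rows took 0.0429% to 0.414% of them. Both mock libraries at 3 dpi stood apart from the other 14. Their scaling factors by the trimmed mean of M-values (TMM) were 0.694 and 0.886, against 0.937 to 1.11 in the other libraries. Mitochondrial genes took 5.48% and 6.13% of their counts, against 2.85% to 5.02% elsewhere, and the skeletal muscle actin actc1b was at 24279 and 38752 CPM (counts scaled to a common library total), against 4857 to 19698 elsewhere. At 1 dpi, particle C and control C had the highest globin levels of their groups, and the headers of the C libraries call them combined, without the series name that A and B share. All 8 markers of whole-embryo tissues (skeletal muscle, heart, lens, neurons, skin, liver and cartilage) had counts in every library. The part of these differences in the globin values was not tested beyond the fits that leave libraries out.

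Several globin rows share reads or names. hbae1 and the chromosome 3 row si:ch211-5k11.2 (ENSDARG00000088330, a hbae1 copy by its identifier) had identical counts in 14 of 16 libraries and differed by 1 count in the other 2. They are therefore 1 measurement and not separate genes here. The row named hbbe1.1 carries an Entrez identifier that RefSeq gives to hbbe1.3, so its name is uncertain. On chromosome 12, the alpha-like row hbz (RefSeq hbae5) exceeded hbbe2 by 1 to 126 counts in 16 of 16 libraries, 0.606% to 6.76% of hbz, and these genes are neighbours in RefSeq's order on assembly GRCz12tu. How the authors assigned reads shared between genes, and whether strand was used, is not given in the sources used here. Gene lengths for the authors' build were not used here, so levels are compared between libraries and never between genes.

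Adult globin transcripts were near the limit of counting at both times. hbaa1, an adult alpha chain, had 20 counts over 16 libraries, with 0 to 5 counts per library, and it failed the filter on low counts. It and 5 further chromosome 3 rows (ba1, ba1l, si:ch211-5k11.6, zgc:92880 and si:xx-by187g17.1, the last not named adult by RefSeq) summed to 64 counts in all, and 4 libraries had none. A count of 0 allows up to 3 counts, which is 0.157 to 0.346 CPM in those 4 libraries. The remaining 6 rows were tested, but hbbe3 passed the filter through 2 libraries alone.

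**Figure D1:**
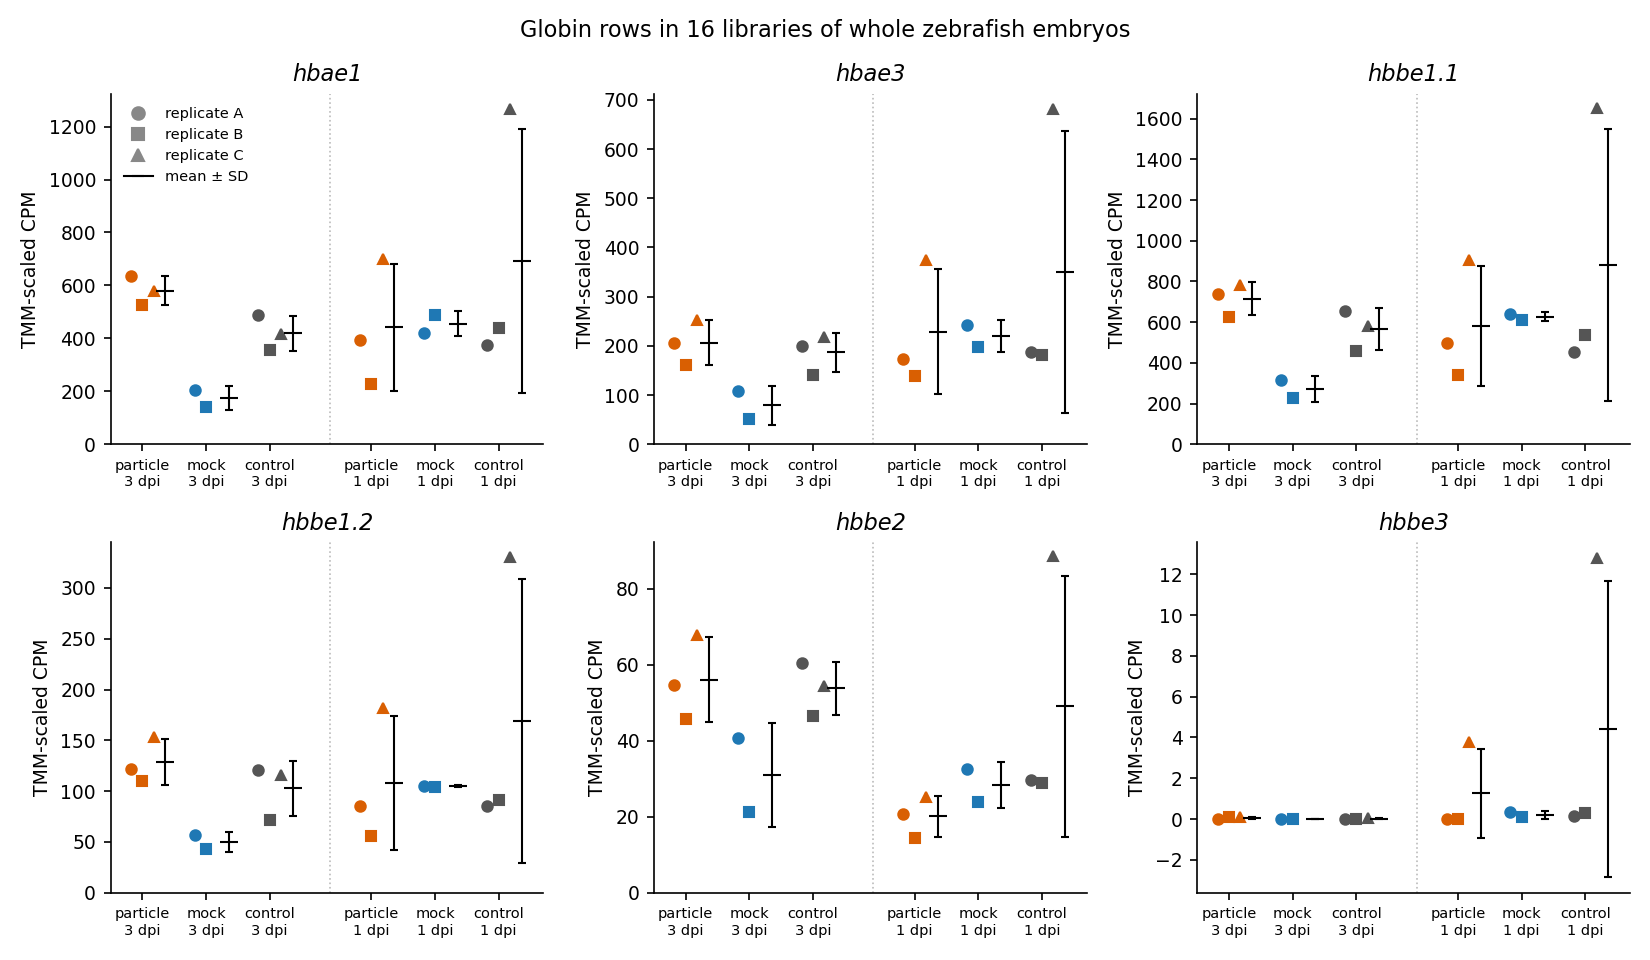
TMM-scaled CPM (vertical axes, each panel with its own scale) of 6 globin rows by library, with groups along the horizontal axis and mean ± SD beside the points. The mock libraries at 3 dpi are the lowest of the 3 dpi groups in each panel but hbbe3, and control C at 1 dpi stands highest in all 6 panels.

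At 3 dpi, globin levels in particle embryos were above those of mock embryos and near those of control embryos. The sum over the 7 rows was 1759, 1468 and 1836 TMM-scaled CPM in particle libraries A, B and C, against 727 and 484 in mock A and B. Control libraries at 3 dpi had 1525, 1072 and 1388. All 3 particle libraries and all 3 control libraries lay above both mock libraries. Particle exceeded control within each letter, but the letters were not taken to pair these groups (same-letter correlations of -0.093, 0.123 and 0.569). The ranges of the particle and control groups overlapped. The means were 1688 ± 194 in particle (SD, n = 3), 605 ± 172 in mock (SD, n = 2) and 1329 ± 232 in control (SD, n = 3), a ratio of 2.79 for particle over mock and of 1.27 for particle over control. As CPM of the raw total, the particle over mock ratio was 3.63, since the raw scale lies 0.35 higher on the log2 scale for this pair. In whole embryos, fewer red cells and less globin RNA per cell cannot be told apart.

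**Figure D2:**
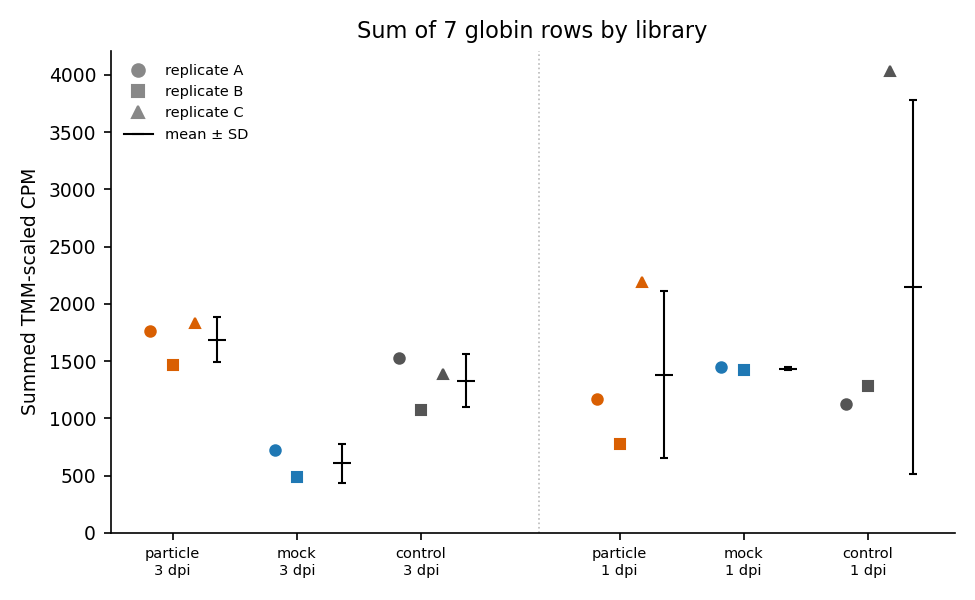
Summed TMM-scaled CPM of the 7 globin rows (vertical axis) in each library, by group (horizontal axis), with mean ± SD. Particle libraries at 3 dpi sit between 1468 and 1836, above the mock libraries at 484 and 727. Control C at 1 dpi sits at 4032.

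Particle against mock at 3 dpi asks what the particles add to the injection and its vehicle. hbae1, an embryonic alpha-like chain, was the single tested member that passed the threshold of 0.05 (1 of 6, against 5.3% of all 23623 tested genes called higher). It had 637, 526 and 577 CPM in particle libraries A, B and C, against 206 and 142 CPM in mock A and B. Every particle library was above every mock library. The log2 difference was 1.74 (SE 0.51, adjusted p = 0.0495, edgeR quasi-likelihood test with Benjamini-Hochberg adjustment). No member fell, against 3.34% of all tested genes called lower, and limma-voom called 1 member as well. Across the 5 rows other than hbbe3 the median log2 difference was 1.38, against 0.03 over all tested genes. In these 5 rows the particle libraries lay wholly above the mock libraries, against 22.7% of all tested genes. No row lay wholly below, against 20.4%. The chromosome 3 rows among them moved together over all libraries (Pearson's r 0.93 to 0.99 for each pair). The 5 rows are therefore not 5 separate outcomes.

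The second alpha-like member, hbae3, had 205, 162 and 253 CPM in particle libraries, against 107 and 51.1 CPM in mock libraries. Its log2 difference of 1.38 (SE 0.57) missed the threshold (edgeR adjusted p = 0.138). The groups did not overlap, and mock B was the lowest of the 5 libraries.

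Among the beta-like rows, hbbe1.1 had 740, 624 and 784 CPM in particle libraries, against 316 and 227 CPM in mock libraries. Its neighbour hbbe1.2 had 122, 110 and 154 CPM in particle libraries, against 56.8 and 42.7 CPM in mock libraries. Both sets were separate, with log2 differences of 1.40 (edgeR adjusted p = 0.0921) and 1.37 (edgeR adjusted p = 0.138). hbbe2 on chromosome 12 had 54.6, 45.7 and 67.9 CPM in particle libraries, against 40.7 and 21.3 CPM in mock libraries. Here the lowest particle library and the highest mock library were close, and the log2 difference was 0.85 (edgeR adjusted p = 0.227). hbbe3 had 0, 1 and 2 counts in particle libraries and 0 in both mock libraries, which gives no fold difference.

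The call of hbae1 was marginal. It was lost in 12 of the 16 fits that leave out 1 library and kept without control A, control C, particle B or particle C of 1 dpi, with edgeR adjusted p from 0.0152 to 0.27 and log2 values from 1.5 to 2.03. Without control C of 1 dpi 4 of the 6 rows were called. The shares of all tested genes called in this and the other alternative fits are not given here, so such counts are not read as particular to globins. Without mock A at 3 dpi the adjusted p was 0.27 and without mock B 0.148, and each of these fits rests on the lone mock library varying like the other groups. Within libraries A and B alone, which share a series name in their headers, hbae1, hbae3, hbbe1.1 and hbbe1.2 passed in edgeR, with adjusted p of 0.0046, 0.017, 0.0063 and 0.0096. DESeq2 called hbae1 and hbbe1.1 (adjusted p = 0.0052 and 0.0283). A fit on the 8 libraries of 3 dpi alone called none of the 6.

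Rows of the same cluster that carry other symbols had like values. si:ch211-5k11.12 (ENSDARG00000087390, hbbe1.3 among RefSeq's synonyms) averaged 155 ± 35.6 CPM in particle (SD, n = 3) and 47.3 ± 20.9 CPM in mock libraries (SD, n = 2) at 3 dpi. Its log2 difference was 1.71 (edgeR adjusted p = 0.0436). The second si:ch211-5k11.2 row (ENSDARG00000089124, hbae1.3) averaged 111 ± 15.4 CPM in particle and 29.4 ± 2.07 CPM in mock libraries. Its log2 difference was 1.91 (edgeR adjusted p = 0.0448). Both rows lay close to the threshold of 0.05, and 5.3% of all tested genes were called higher. Whether these calls hold with libraries left out is not given here. Copies may share reads with the members, so these rows are not separate evidence. On chromosome 12, hbz had a log2 difference of 0.85 (edgeR adjusted p = 0.247), the value of hbbe2.

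Mock against control at 3 dpi asks what injection and vehicle do without particles. The 5 rows other than hbbe3 had log2 differences below 0, with a median of -1.06, against -0.01 over all tested genes. edgeR called none of the 6, as did DESeq2 and limma-voom (edgeR called 1.19% of all tested genes lower and 0.428% higher). At an unadjusted p under 0.05 were 3 of the 6 rows, and 4963 of all 23623 tested genes. hbae1 had 206 and 142 CPM in mock A and B, against 487, 355 and 416 CPM in control A, B and C, a log2 difference of -1.27 (SE 0.50, edgeR adjusted p = 0.165). hbbe1.1 had 316 and 227 CPM in mock libraries, against 657, 457 and 583 CPM in control libraries, a log2 difference of -1.06 (edgeR adjusted p = 0.237). In 5 of the 6 rows both mock libraries lay below all control libraries, against 20.7% of all tested genes lower and 18.3% higher. Since the chromosome 3 rows move together, these are not 5 separate outcomes. hbae3 was at -1.23, hbbe1.2 at -1.05 and hbbe2 at -0.79 on the log2 scale. Within libraries A and B alone hbae1 passed (edgeR adjusted p = 0.0486).

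Particle against control at 3 dpi takes particles, injection and vehicle together. The 5 rows other than hbbe3 had log2 differences of 0.06 to 0.47, the lowest for hbbe2 and the highest for hbae1. None was called by edgeR, DESeq2 or limma-voom, and none had an unadjusted p under 0.05; 0% of all tested genes were called higher. hbae1 was the single row whose particle libraries (637, 526 and 577 CPM) all lay above the control libraries (487, 355 and 416 CPM), against 3.16% of all tested genes higher and 2.58% lower. These comparisons share libraries, so that their values are not separate evidence.

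**Figure D3:**
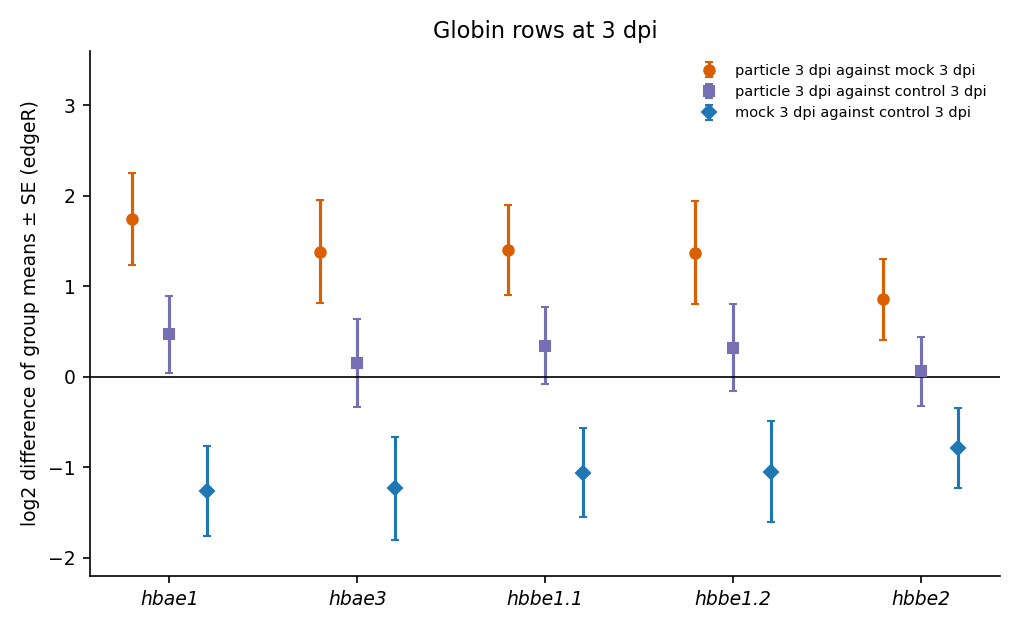
Log2 differences of group means at 3 dpi with their standard errors from edgeR (vertical axis) for 5 globin rows (horizontal axis). Particle against mock lies between 0.85 and 1.74, particle against control between 0.06 and 0.47, and mock against control between -1.27 and -0.79.

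At 1 dpi the particle and control libraries spread widely within their groups, and both mock libraries lay close together. The sum was 1170, 779 and 2192 CPM in particle libraries A, B and C, 1445 and 1425 CPM in mock libraries, and 1128, 1278 and 4032 CPM in control libraries. Particle C and control C were the highest of the 16 libraries, and the other 6 libraries of 1 dpi lay between 779 and 1445. hbae1 was likewise highest in control C and particle C, with 393, 229 and 701 CPM in particle libraries, 422 and 488 CPM in mock libraries, and 373, 438 and 1268 CPM in control libraries.

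No globin row was called by edgeR, DESeq2 or limma-voom in the 3 comparisons at 1 dpi. For particle against mock, 0 of 6 rows had an unadjusted p under 0.05 and 0% of all tested genes were called in either direction, and 0 rows were separate (13.1% of all tested genes higher, 13.2% lower). For particle against control, 1 row did, hbbe2, with a log2 difference of -1.29 (edgeR adjusted p = 1.00), against 0.00423% of all tested genes called higher and 0% lower. Of all 23623 tested genes, 535 had an unadjusted p under 0.05 in that comparison. hbbe2 had 20.9, 14.5 and 25.1 CPM in particle libraries, against 29.7, 28.8 and 88.6 CPM in control libraries, with no overlap (2.7% of all tested genes lower, 2.82% higher). For mock against control, 0 rows had an unadjusted p under 0.05, 0 rows were separate (19.5% of all tested genes higher, 16.7% lower) and 0% of all tested genes were called. The log2 differences of the chromosome 3 rows against control rested on control C. Without it, hbae1 went to 0.12 in particle against control and 0.17 in mock against control, where all libraries gave -0.65 and -0.61.

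hbbe3, a beta-like gene on chromosome 12, was detected at appreciable level in 2 libraries alone. It had 0, 0 and 68 counts in particle libraries A, B and C at 1 dpi, 5 and 1 counts in mock libraries, and 2, 3 and 251 counts in control libraries. At 3 dpi the highest count was 2, in particle C. Both libraries with more than 5 counts are the C libraries of 1 dpi that also had the highest globin sums. The tested log2 difference of control 3 dpi against 1 dpi (edgeR adjusted p = 0.147) depends on a prior count and is not given as a fold.

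Over time, hbbe2 had a higher log2 difference than the tested chromosome 3 rows in particle, mock and control embryos alike. Its counts lie within 0.606% to 6.76% of those of its alpha-like neighbour hbz. The values given for hbbe2 are therefore not read as particular to this beta-like gene. In particle embryos hbbe2 had 54.6, 45.7 and 67.9 CPM at 3 dpi, against 20.9, 14.5 and 25.1 CPM at 1 dpi. Every 3 dpi library lay above every 1 dpi library, 1 row of 6 against 13.9% of all tested genes higher and 11.4% lower. The log2 difference was 1.48 (SE 0.39, edgeR adjusted p = 0.0675). edgeR called 0 of 6 rows, against 1.56% of all tested genes called higher and 0.508% lower. An unadjusted p under 0.05 was found for 1 row and for 4396 of all 23623 tested genes. Without control C of 1 dpi hbbe2 was called. The replicate letters were taken to pair these groups, on same-letter correlations of 0.406, 0.112 and 0.542, but the main fit has no block. With the replicate as a block hbbe2 was called (log2 1.5, edgeR adjusted p = 0.00509). That fit also called hbbe3, which rests on particle C of 1 dpi. DESeq2 without the block called hbbe2 (adjusted p = 0.00709), limma-voom none. hbae1, hbbe1.1 and hbbe1.2 had log2 values of 0.39, 0.30 and 0.25, and hbae3 had -0.15.

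In mock embryos the chromosome 3 rows had lower values at 3 dpi than at 1 dpi in every library. hbae1 had 206 and 142 CPM at 3 dpi, against 422 and 488 CPM at 1 dpi, a log2 difference of -1.39 (SE 0.53, edgeR adjusted p = 0.0738). hbae3 had 107 and 51.1 CPM at 3 dpi, against 243 and 197 CPM at 1 dpi, a log2 difference of -1.47 (edgeR adjusted p = 0.0964). hbbe1.1 was at -1.21 and hbbe1.2 at -1.07, while hbbe2 was at 0.13 with overlapping libraries. edgeR called 0 of 6 rows, against 12.5% of all tested genes called lower and 11.1% higher. limma-voom called 0, while DESeq2 called hbae1 and hbae3. By unadjusted p, 3 rows were under 0.05, as were 8765 of all 23623 tested genes. In 5 rows the 3 dpi libraries lay wholly below, against 34.8% of all tested genes lower and 33.5% higher. Among the 5 is hbbe3, near the limit of counting, with 5 and 1 counts at 1 dpi and 0 in both libraries at 3 dpi. The others, all on chromosome 3, move together and are not separate outcomes. Without control C of 1 dpi 3 rows were called, and without particle C of 1 dpi 1 row. The shares of all tested genes called in these fits are not given here.

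In control embryos hbbe2 had 60.4, 46.6 and 54.5 CPM at 3 dpi, against 29.7, 28.8 and 88.6 CPM at 1 dpi, a log2 difference of 0.13 with control C above all others. The chromosome 3 rows had log2 values from -0.91 to -0.64, which lay between 0.02 and 0.22 without control C of 1 dpi. edgeR called 0 of 6 rows (0.203% of all tested genes called lower and 1.19% higher), and DESeq2 and limma-voom 0. By unadjusted p, 1 row was under 0.05, as were 4280 of all 23623 tested genes. hbbe3 alone was separate, against 11% of all tested genes lower and 12.5% higher. It had 2, 3 and 251 counts in control A, B and C at 1 dpi, against 0, 0 and 1 at 3 dpi. The counts in A and B are near the limit of counting, so this separation is not read as a result about hbbe3.

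The difference between these changes was tested as an interaction. For particle minus mock, hbae1 had a log2 value of 1.78 (SE 0.68, edgeR adjusted p = 0.145), hbbe1.1 1.51 and hbbe2 1.34. edgeR called 0 of 6 rows, against 0% of all tested genes called higher and 0.00423% lower, and DESeq2 and limma-voom called 0. An unadjusted p under 0.05 was found for 3 rows and for 5665 of all 23623 tested genes. Within libraries A and B alone 4 rows passed, hbae1 with an adjusted p of 0.0132 in edgeR. The share of all tested genes called in that fit is not given here. For particle minus control and for mock minus control, edgeR, DESeq2 and limma-voom called 0 of 6. At an unadjusted p under 0.05 were 1 and 0 rows, beside 212 and 5528 of all 23623 tested genes.

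The share of each row in the globin counts does not depend on library scaling. Shares are of counts, not corrected for gene length, so each row is compared with itself across libraries. hbbe1.1 took 42.0% to 46.9% of the globin counts at 3 dpi and 40.1% to 44.4% at 1 dpi (8 libraries each). hbae1 took 28.4% to 36.2% at 3 dpi and 29.2% to 34.3% at 1 dpi. hbbe1.2 took 6.71% to 8.82% at 3 dpi and 7.15% to 8.29% at 1 dpi. The ranges of the 2 times overlap for these 3 rows.

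hbbe2 had a larger share at the later time in every library. It took 3.11% to 5.6% of the globin counts at 3 dpi (median 3.94%), against 1.15% to 2.64% at 1 dpi (median 2.03%), with no overlap between the 8 libraries of each time. At 3 dpi it was 3.11%, 3.11% and 3.70% in particle libraries, 5.6% and 4.41% in mock libraries, and 3.96%, 4.34% and 3.93% in control libraries. The particle libraries were the lowest and the mock libraries the highest of the 3 groups. At 1 dpi it was 1.78%, 1.86% and 1.15% in particle libraries, 2.26% and 1.68% in mock libraries, and 2.64%, 2.26% and 2.20% in control libraries, with particle below control in each letter. The widest half-width of a 95% Wilson interval was 0.661 percentage points at 3 dpi and 0.262 at 1 dpi, and these intervals cover counting error only. How often other genes, set over the globin sum, separate the times was not computed. The separation is therefore not read as particular to hbbe2, whose counts also lie close to those of its alpha-like neighbour hbz.

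hbae3 ran the other way, with 10.6% to 15.7% of the globin counts at 3 dpi (median 13.1%), against 13.8% to 17.9% at 1 dpi (median 16.7%), and these ranges overlap. The counts of hbae1 and hbae3 over those of the 4 beta-like rows were 0.664 to 0.918 at 3 dpi and 0.853 to 0.987 at 1 dpi. Both mock libraries at 3 dpi had the lowest ratios, 0.759 in A and 0.664 in B. The alpha-like rows hbz and si:ch211-5k11.2 and the row si:ch211-5k11.12 (hbbe1.3 among RefSeq's synonyms) are not in this ratio. hbbe2, whose counts lie close to those of hbz, is in it as beta-like.

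**Figure D4:**
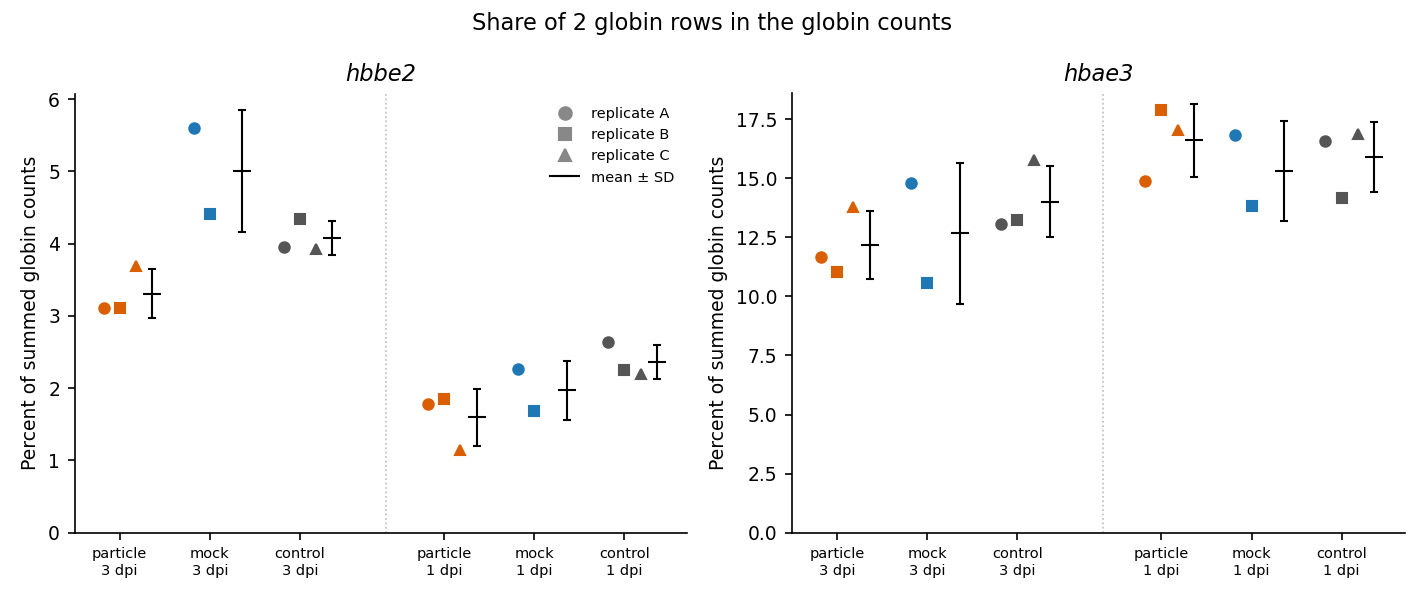
Percent of summed globin counts (vertical axes, starting at 0) held by hbbe2 and hbae3 in each library, by group (horizontal axis), with mean ± SD. hbbe2 lies between 3.11% and 5.6% at 3 dpi and between 1.15% and 2.64% at 1 dpi; the hbae3 ranges of the 2 times overlap.

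Across the 16 libraries the log2 CPM of the 4 chromosome 3 rows moved together, with Pearson's r between 0.93 and 0.99 for each pair. hbbe2 was less tied to them, with r between 0.49 and 0.63. These libraries share scaling, series and group, and the values are a description.

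Markers of erythrocytes other than globins had the same order of group means as the globin sums at 3 dpi, particle above control above mock. The 8 markers summed to 487, 288 and 247 CPM in particle libraries, 110 and 144 CPM in mock libraries, and 187.5, 265 and 220 CPM in control libraries. Every particle library was above every mock library, and gata1a was at 0 in mock B. Library by library the orders differed: mock A, control A and particle C each had the highest globin sum and the lowest marker sum of their group. All 8 had log2 differences above 0 in particle against mock, with a median of 1.62, and 3 were called higher by edgeR, against 5.3% of all tested genes. All 8 had differences below 0 in mock against control, with a median of -0.94 and 0 called. All 8 are also members of the lists by role below. The 3 calls (slc4a1a, rhag and tfr1a) are counted there again, so markers and lists are not separate evidence. At 1 dpi the order of group means was not the same for markers and globins. Mean marker sums were 201 CPM in particle, 249 CPM in mock and 190 CPM in control. The mean globin sums were 1380, 1435 and 2146 CPM in the same groups. The part of the markers in the globin values was not tested.

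The globin sum over the marker sum was 18.5 in control C and 12.9 in particle C at 1 dpi, against 3.36 to 8.14 in the other 14 libraries. Control C had 218 CPM of erythrocyte markers, near the 189 and 163 CPM of control A and B, beside a globin sum of 4032 CPM. A near-equal sum does not show that each marker was level. With group means off, Pearson's r with the globin sum was 0.89 for slc4a1a, 0.84 for epb41b, 0.53 for cahz and 0.44 for alas2. It was -0.85 for sptb and -0.52 for rhag. Values of single markers in control C are not given here.

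**Figure D5:**
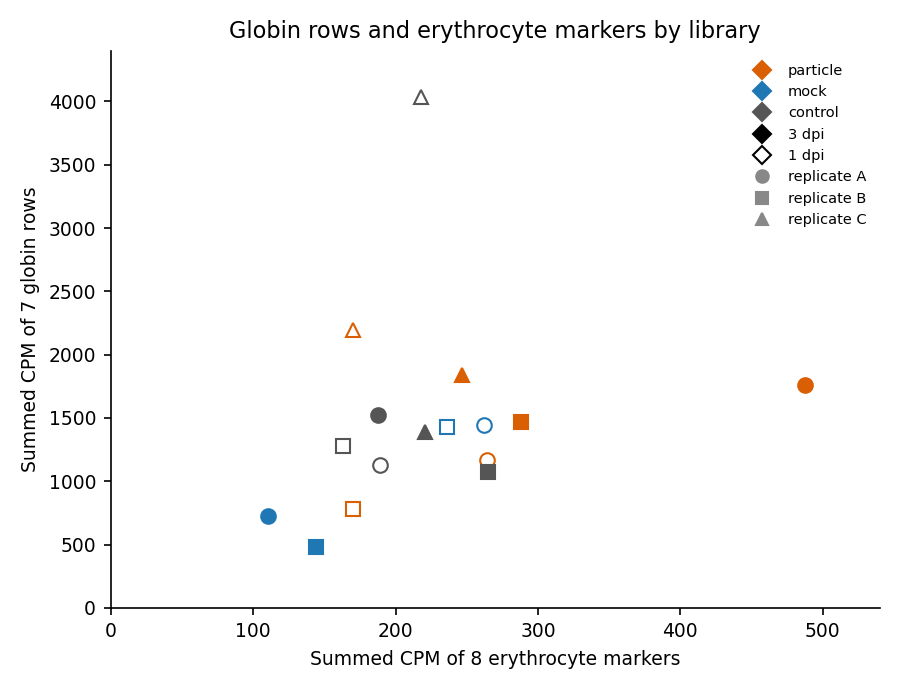
Summed CPM of the 7 globin rows (vertical axis) against summed CPM of 8 erythrocyte markers (horizontal axis) in 16 libraries, coloured by treatment, filled for 3 dpi and open for 1 dpi. Mock libraries at 3 dpi sit at the lower left; control C and particle C of 1 dpi sit above the rest.

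Members of the red cell pathways were read from lists by role. In the list of red cell membrane proteins and enzymes, 3 of 17 tested genes rose in particle against mock at 3 dpi and 0 fell, against 5.3% of all tested genes called higher and 3.34% lower, with a median log2 difference of 0.20. slc4a1a, the anion exchanger of the red cell membrane, averaged 33 ± 4.09 CPM in particle (SD, n = 3) and 5.14 ± 0.275 CPM in mock libraries (SD, n = 2). Its log2 difference was 2.68 (SE 0.57, edgeR adjusted p = 0.0195). rhag, the Rh-associated glycoprotein, rose by 1.63 on the log2 scale (edgeR adjusted p = 0.0493). ank1b, an ankyrin of the membrane skeleton, rose by 1.18 (edgeR adjusted p = 0.0242). In 24 alternative fits the call of rhag was lost in 17, that of ank1b in 4 and that of slc4a1a in 3.

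For heme synthesis, 1 of 14 tested genes rose and 1 fell in particle against mock at 3 dpi, with a median of 0.50; these counts are near the 5.3% and 3.34% of all tested genes. urod, uroporphyrinogen decarboxylase, rose by 1.26 (edgeR adjusted p = 0.0219). slc25a38a, a mitochondrial carrier, fell by 1.56 (edgeR adjusted p = 0.0396), to 1.53 ± 0.772 CPM in particle against 4.52 ± 0.234 CPM in mock libraries. In 24 alternative fits its call was lost in 9, and that of urod in 3. alas2, the red cell enzyme that starts heme synthesis, averaged 87.2 ± 96.1 CPM in particle and 20.4 ± 12.5 CPM in mock libraries, a log2 difference of 2.10 with a wide spread (SE 1.11, edgeR adjusted p = 0.235).

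For red cell iron uptake, 1 of 11 tested genes rose and 1 fell, again near the 5.3% and 3.34% of all tested genes. tfr1a, the transferrin receptor of zebrafish red cells, rose by 2.07 on the log2 scale (edgeR adjusted p = 0.0179) and averaged 5.31 ± 2.67 CPM in particle and 1.25 ± 0.0735 CPM in mock libraries. fth1b, a ferritin heavy chain that stores iron, fell by 0.78 (edgeR adjusted p = 0.0174), with 22.2 ± 3.44 CPM in particle and 38 ± 0.268 CPM in mock libraries. In mock against control at 3 dpi fth1b rose by 0.75 (edgeR adjusted p = 0.0439), and it was the single gene of the erythroid lists to pass there. That call was lost in 15 of 24 alternative fits.

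Of 14 erythroid transcription factors and regulators, 1 was called in each direction, against 5.3% of all tested genes higher and 3.34% lower. stat5a, a signal transducer, rose by 1.68 on the log2 scale. tal1, a blood transcription factor, fell by 0.79 (edgeR adjusted p = 0.0476 for both). Both calls were lost in 14 of 24 alternative fits. gata1a, the erythroid GATA factor, was near the limit of counting, with 1.75 ± 0.329 CPM in particle and 0.544 ± 0.769 CPM in mock libraries at 3 dpi (log2 1.61, edgeR adjusted p = 0.183). Each of the 9 calls in these lists was lost without mock A or without particle B of 3 dpi.

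The 5 listed genes of the globin family that are not hemoglobin chains (mb, ngb, cygb1, cygb2 and xgb) were read as well. They had 0 calls by edgeR in particle against mock and in mock against control at 3 dpi. Myoglobin, mb, averaged 41.4 ± 18.4 CPM in particle, 16.3 ± 8.34 CPM in mock and 32.5 ± 1.69 CPM in control libraries at 3 dpi, with a log2 difference of 1.34 in particle against mock (edgeR adjusted p = 0.0587). Neuroglobin, ngb, was at 41.5 ± 5.08, 42.7 ± 2.28 and 44.5 ± 6.26 CPM in the same groups.

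In particle against control at 3 dpi and in control 3 dpi against 1 dpi, 0 genes of the 4 erythroid lists passed in edgeR. For gata1a, alas2 and slc4a1a the log2 differences of particle against control at 3 dpi were 0.59, 0.99 and 0.81, and those of mock against control were -1.01, -1.11 and -1.87. Over time they were 1.93, 2.58 and 1.32 in particle, -0.46, 0.85 and -1.10 in mock, and 0.18, 0.71 and 0.24 in control embryos. At 1 dpi they were -0.79, 0.38 and 0.26 in particle against mock, -1.16, -0.88 and -0.26 in particle against control, and -0.37, -1.26 and -0.53 in mock against control. The differences between treatments over time were 2.40, 1.72 and 2.42 for particle minus mock, 1.75, 1.87 and 1.07 for particle minus control, and -0.64, 0.15 and -1.34 for mock minus control. None of these values passed the threshold. gata1a was near the limit of counting, so its values are not read as folds. At 3 dpi its log2 value over alternative fits ran from 0.70 to 7.63 in particle against mock. In mock against control it ran from -7.03 to -0.10.

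The genes whose log2 CPM followed the globin sum most closely over 16 libraries, out of 13737 whose mean CPM reached 5, were osgn1 (Pearson's r 0.88), tmem185 (0.86), nt5c2l1 (0.85), dcps (0.85) and gch2 (0.85). After group means were taken off they were lrch4 (0.98), papola (0.96), ube4b (0.96), hoxb3a (0.95) and metrnl (0.95). No gene of either set is in the erythroid lists. Among the erythrocyte markers, r was 0.78 for slc4a1a, 0.70 for epb41b, 0.59 for cahz, 0.36 for alas2, 0.10 for rhag and -0.10 for sptb. With group means off it was 0.89, 0.84, 0.53, 0.44, -0.52 and -0.85 in the same order. The markers gata1a and tfr1a were not ranked. The markers thus did not follow the globin sum alike. These are descriptions over libraries that share series and scaling.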

How the data were processed

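Bowtie2, SAMtools, DESeq and build GRCz10 are named in the submitters' processing notes, without versions. How reads were counted per gene is not given in the sources used here. Each deposited column holds whole-number gene counts. Each table ends in a size factor with decimals, so the deposited unit was recorded under expected counts, and rounding changed no gene's value. That line and a blank one, 2 per file, were left out, and no column was unused. Total counts were 8679739 to 19840148. Libraries of 1 group differed with a chi-square of 6.02 to 98.4 for each degree of freedom, so none was a repeat deposit.

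The tools were DESeq2 1.42.0, limma 3.58.1 and edgeR 4.0.16 in R 4.3.3, with python 3.11.15 and matplotlib 3.10.9. filterByExpr (minimum count 10, minimum total 15) left 23623 genes. Quasi-likelihood tests with TMM scaling were fitted on the 6 group means of 16 libraries, with Benjamini-Hochberg adjustment over all tested genes and a threshold of 0.05. The edgeR fit was also run on simulated counts, with 200 genes changed in particle at 3 dpi and the same spread in all libraries. The simulation lacked the deviating C libraries and the low scaling factors of mock at 3 dpi. It therefore cannot show how the fit behaves under these conditions. CPM use the TMM-scaled total unless stated, and SE is the log2 value over the root of F. Likeness used a prior count of 2.

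Named beside the members were list genes that passed in any of 3 comparisons (particle against mock and mock against control at 3 dpi, control over time), up to 4 per list, and gata1a, alas2 and slc4a1a throughout. The members and lists were chosen with earlier results of these data known. pklr and mmp13a.1 did not match a row. Marker lists of other cell types summed to 20.3 ± 5.49 CPM in particle and 13.4 ± 0.0664 CPM in mock libraries at 3 dpi for neutrophils, 18.7 ± 3.9 and 15.9 ± 1.52 for macrophages, 100.1 ± 28.6 and 60 ± 6.18 for thrombocytes, and 67 ± 14.1 and 56.4 ± 1.74 for vessel endothelium, and edgeR called 0 of their 14 tested genes. The neutrophil marker cxcr1 was at 0 in all libraries of 3 dpi.

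Replicate letters were checked as pairs by the correlation of deviations from group means. It was 0.571, 0.305 and 0.745 for A, B and C between particle and control at 1 dpi. Between particle at 3 and 1 dpi it was 0.406, 0.112 and 0.542. All were over 0.1, so the letters were taken to pair these groups, and in the other comparisons at least 1 letter was lower. Control at 1 dpi and particle at 3 dpi, which are not compared, also had 0.307, 0.214 and 0.498. A pair and a shared series therefore cannot be told apart. The header of particle B at 1 dpi names A and the characteristics of control C at 1 dpi read replica 1; titles were followed. Alternatives were RLE scaling, DESeq2, limma-voom, no low-count filter, TMM without globin rows, libraries A and B only, a replicate block, only the libraries of the same time (treatment comparisons) or treatment (time comparisons), and each library left out.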

Additional observations from a re-analysis of the deposited data

How the results depend on the processing

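Over the 1389 alternative values of single log2 differences, 1213 kept their direction and their side of the threshold, 100 fell short of it, 45 passed it and 31 turned sign, none of these 31 at a called value. For particle against mock at 3 dpi, where 1 globin row was called, DESeq2 gave 2, the fit without a low-count filter 0, libraries A and B only 4, the replicate block 4, only the libraries of 3 dpi 0, and leaving out each library 0 to 4. For mock 3 dpi against 1 dpi (0 called), DESeq2 gave 2, A and B only 4, the replicate block 4, only the mock libraries 4 and leaving out each library 0 to 3. For particle 3 dpi against 1 dpi (0), DESeq2 gave 1, A and B only 1, the replicate block 2 and leaving out each library 0 to 1. Particle minus mock over time (0) gave 4 with A and B only and 4 with the replicate block. Mock against control at 3 dpi (0) gave 1 with A and B only, and control 3 dpi against 1 dpi (0) gave 1 with the replicate block. The replicate block changed no other count. In the comparisons whose letters were not taken as pairs the block shares only a letter. The mean summed CPM was 467 on the raw total and 605 on the TMM-scaled one in mock at 3 dpi, and 1540 and 1435 in mock at 1 dpi. The shares of all tested genes called in these alternative fits are not given here, so the counts are not read as particular to the globin rows. The causes were not tested.

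Signs turned when 1 library was left out or only A and B were used. For particle against control at 1 dpi, leaving out each library gave -1.16 to 0.12 for hbae1, -1.16 to 0.32 for hbae3, -1.08 to 0.23 for hbbe1.1 and -1.26 to 0.29 for hbbe1.2. For mock against control at 1 dpi it gave -0.91 to 0.17, -0.98 to 0.26, -0.81 to 0.34 and -1.01 to 0.25 for these rows, and A and B only gave 0.17, 0.26, 0.34 and 0.25. For control 3 dpi against 1 dpi it gave -1.02 to 0.0494 for hbae1, -1.22 to 0.0196 for hbae3, -0.95 to 0.19 for hbbe1.1, -1.03 to 0.22 for hbbe1.2 and -0.14 to 0.88 for hbbe2, and A and B only gave 0.0636 for hbae1, 0.18 for hbbe1.1 and 0.14 for hbbe1.2. For mock 3 dpi against 1 dpi, hbbe2 ran from -0.42 to 0.51. For particle 3 dpi against 1 dpi, hbae3 ran from -0.41 to 0.40 (0.22 with A and B only) and hbbe1.2 from -0.0573 to 0.86. alas2 in mock against control at 3 dpi ran from -1.94 to 0.15, and in control over time gata1a ran from -0.0894 to 0.79, alas2 from -0.55 to 2.05 and slc4a1a from -0.0869 to 1.1. With 2 mock libraries per time, leaving out 1 leaves a lone library, and counts below 3 per library limit hbbe3 and the adult rows.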

Other observations

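In mock 3 dpi against 1 dpi, edgeR called 3 of 14 heme synthesis genes higher and 4 lower, 3 of 11 iron genes higher and 2 lower, 1 of 17 membrane and enzyme genes higher and 3 lower, and 1 of 14 transcription factors in each direction, against 11.1% of all tested genes called higher and 12.5% lower. The shares of the transcription factors in both directions and of the membrane genes higher were under those of all genes. tfr1a, the transferrin receptor, fell by 2.41 on the log2 scale (edgeR adjusted p = 0.00303) and sptb, the beta spectrin of the red cell skeleton, fell by 1.63 (edgeR adjusted p = 0.0144). fth1b, a ferritin heavy chain, rose by 1.25 (edgeR adjusted p = 0.000963) and alas1, the housekeeping enzyme that starts heme synthesis, rose by 1.23 (edgeR adjusted p = 0.00561). Myoglobin, mb, fell by 1.94 (edgeR adjusted p = 0.00814), and neuroglobin, ngb, rose by 0.82 (edgeR adjusted p = 0.0339). In particle 3 dpi against 1 dpi, alas1 was the single call in these lists, 0.91 higher (edgeR adjusted p = 0.0405), and control embryos had none. As an interaction, particle minus mock over time, edgeR called none of the list genes; tfr1a had a log2 value of 2.46 (edgeR adjusted p = 0.0618) and fth1b -1.03 (edgeR adjusted p = 0.0608). The genes named here were chosen after their values were seen.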
